A study of Homo sapiens with 12 samples.

Results

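The genes described here are 10 keratins of epithelial cells, KRT5, KRT7, KRT8, KRT10, KRT15, KRT17, KRT18, KRT19, KRT80 and KRT81. They were chosen by name, with earlier results of these data known. All were found by their Ensembl identifiers in both deposited tables, so that 10 of 59424 genes were followed. The study sequenced polyadenylated RNA from 2 prostate cancer cell lines to find genes that respond to GALNT7, a Golgi enzyme that adds the initiating sugar of O-glycans. CWR22Rv1 is an established prostate cancer line; here it carried either lentiviral shControl or the GALNT7 knockdown (GALNT7 KD). DU145 is another such line; it carried either a lentiviral ORF control (OEControl) or the GALNT7 overexpression (GALNT7 OE). Each of the 4 groups had 3 libraries, called biological replicates in the labels. The lines were made by stable lentiviral transduction, and the sources used here do not say whether the replicates came from separate transductions, so p-values measure the spread between these cultures only. All values below are normalised counts, which are reads divided by a scaling factor of the library, unless another unit is named.

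Keratins are the intermediate filament proteins of epithelial cells. A filament needs a type I (acidic) and a type II (basic) keratin in a pair, and a keratin without a partner is usually degraded. Glandular cells, including the luminal cells of the prostate, build their filaments from KRT8 and KRT18, often with KRT19 and KRT7, while the basal cells use KRT5 with KRT14 and also make KRT15. The type II genes and KRT18 lie in a cluster on chromosome 12, and the other type I genes lie on chromosome 17. They are therefore described separately.

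In GRCh38 the chromosome 12 members lie in the order KRT80 (52168996 to 52192000, minus strand), KRT7 (52232520 to 52252186, plus), KRT81 (52285913 to 52291534, minus), KRT5 (52514575 to 52520687, minus), KRT8 (52897187 to 52949954, minus) and KRT18 (52948871 to 52952901, plus). KRT8 and KRT18 are neighbours that overlap at one end on opposite strands. The chromosome 17 members lie in the order KRT10 (40818117 to 40822595), KRT15 (41513743 to 41522529), KRT19 (41523617 to 41528308) and KRT17 (41619441 to 41624842), all on the minus strand. KRT15 and KRT19 are next to each other.

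KRT81 is a hair keratin with close relatives in the same cluster, which matters for how its reads can be assigned. KRT86 runs over it on the opposite strand. The coding sequences of KRT81 and KRT86 were identical at 93.6% of 1454 aligned bases, with 1 identical run of 605 bases, and those of KRT81 and KRT83 at 93.4%. The stretch that best separates KRT81 from KRT86 is shown from GENCODE release 29. It covers coding positions 1249 to 1308 in both genes and crosses an exon junction. The KRT81 stretch lies within chr12:52286465-52286821 on the minus strand and the KRT86 stretch within chr12:52308234-52308432 on the plus strand, and capitals mark the 14 bases that differ.
KRT81: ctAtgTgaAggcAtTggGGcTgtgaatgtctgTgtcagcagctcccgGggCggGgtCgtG
KRT86: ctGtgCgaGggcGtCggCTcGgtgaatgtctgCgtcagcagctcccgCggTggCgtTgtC

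Shared sequence was measured for each member as the share of the 31-base words of its main transcript that also occur in another gene. It was 60.4% for KRT18, 53.2% for KRT81, 51.1% for KRT8 and 34.6% for KRT17, and between 0.144% and 11.4% for the other 6 members. For KRT8 and KRT18 the relatives are mostly processed pseudogenes. The 50 KRT8 pseudogenes together held 1.05% to 2.53% of the KRT8 value in any library, and the 65 KRT18 pseudogenes 0.212% to 1.12% of the KRT18 value. The values of KRT8, KRT18 and KRT81 are therefore less certain than those of KRT7, KRT10, KRT15, KRT19 and KRT80, because the counting could split reads between copies. KRT8 and KRT18 overlap on opposite strands, as do KRT10 and TMEM99, and KRT86 begins within KRT7 on the same strand; the libraries kept the strand, but whether the counting used it is not given in the sources used here.

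The libraries held 18364512 to 22264533 reads in CWR22Rv1 and 21628718 to 24356910 in DU145. GALNT7 checked the labels: its values were 862, 1042 and 1093 in shControl and 481, 501 and 400 in GALNT7 KD (log2 fold change -1.11, limma adjusted p=0.0051), and 1051, 928 and 913 in OEControl and 1988, 2221 and 2334 in GALNT7 OE (log2 fold change 1.18, adjusted p=8.0e-05). In neither line did the groups overlap (exact permutation test, two-sided p=0.1 in both, the smallest that 3 libraries against 3 allow). Of the luminal markers, HOXB13 reached at most 11.2 and KLK3 was at 0 in DU145, so that this line made KRT8 and KRT18 almost without those prostate markers. The basal markers TP63, KRT5 and KRT14 were near 0 or at 0 in both lines, TP63 reaching 17 reads in a single DU145 library, and KRT15 was the only basal marker of the 4 that averaged 5 or more, the minimum set for testing. Markers of other cell types were few. In CWR22Rv1 none of the 19 markers of neuroendocrine, fibroblast and muscle, endothelial or blood cells, of which 9 averaged 5 or more, was called by limma, edgeR or DESeq2, while 3 had an unadjusted p under 0.05. With GALNT7 OE the sum of the 4 blood markers went from 2581 to 2757 in OEControl down to 985 to 1121, nearly all of it CD68 (log2 fold change -1.37, adjusted p=1.5e-05), with PTPRC, CD3E and HBB at 2 reads or fewer in every library. The 7 fibroblast and muscle markers summed to 345 to 492 in OEControl and 113 to 196 in GALNT7 OE, with COL1A1 lower (-2.01, adjusted p=0.0059), and the 5 neuroendocrine markers to 15.3 to 25.8 and 34.6 to 48.1, with SYP higher (1.17, adjusted p=0.0168). Their part in the keratin results was not tested.

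To compare keratins with each other, levels were set per length, in RPKM, which is reads per kb of the main transcript scaled to the depth of the library. In shControl cells the order was KRT8 at 256 ± 2.80 (SD, n=3), KRT19 at 246 ± 5.79 and KRT18 at 201 ± 3.75, and no libraries overlapped between these 3. All other keratins were far lower, with KRT10 at 5.47 ± 0.384 and KRT7 (1.45 ± 0.904) and KRT15 (1.44 ± 0.198) overlapping each other. By coding length, KRT15 stood above KRT7, since most of its long transcript is not coding. CWR22Rv1 cells thus held the luminal set of KRT8, KRT18 and KRT19 with little KRT7.

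DU145 cells held another keratin set. KRT7 led at 989 ± 5.62 (SD, n=3) in OEControl, followed by KRT18 at 286 ± 7.53 and KRT8 at 275 ± 12.7, whose libraries overlapped and whose order turned by coding length. KRT19 followed at 175 ± 9.71 and KRT80, a type II keratin that is made in many epithelia, at 51.4 ± 0.653. KRT81 stood at 10.4 ± 0.620, KRT10 at 9.08 ± 0.384 and KRT15 at 0.302 ± 0.0677. The levels of the 2 lines are set side by side only as a description, because their tables were scaled separately.

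**Figure D1:**
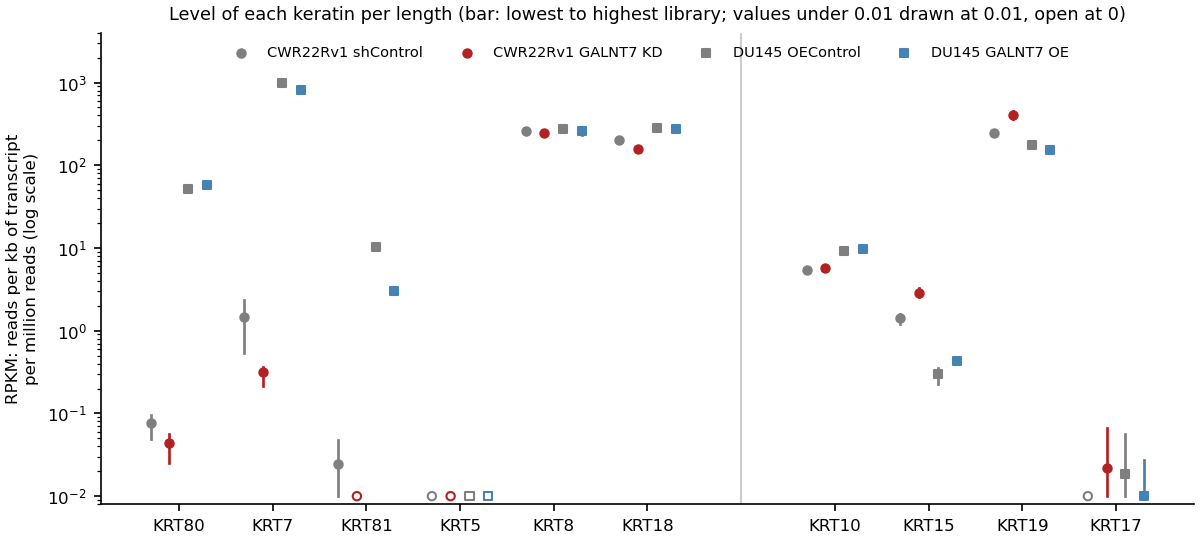
Level of each keratin in the 4 groups, in RPKM by main transcript on a log axis; points are means of 3 libraries, bars run from the lowest to the highest library, and genes follow their order on chromosome 12 (left) and 17 (right). KRT8, KRT18 and KRT19 had means between 154 and 402 in every group, while the mean of KRT7 was 1.45 or less in CWR22Rv1 and 805 or more in DU145.

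KRT5, the type II keratin of basal cells, had 0 reads in all 12 libraries, which allows up to 3 reads per library at this depth, or normalised counts of up to 2.65 to 3.20. Its partner KRT14 had 2 to 7 reads per library in CWR22Rv1 and at most 1 in DU145. KRT17, a type I keratin of basal and injured epithelium, had 2 reads in 1 GALNT7 KD library, 2 in 1 OEControl library, 1 in 1 GALNT7 OE library and 0 in the other 9 libraries. None of these could be tested for a difference.

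**Figure D2:**
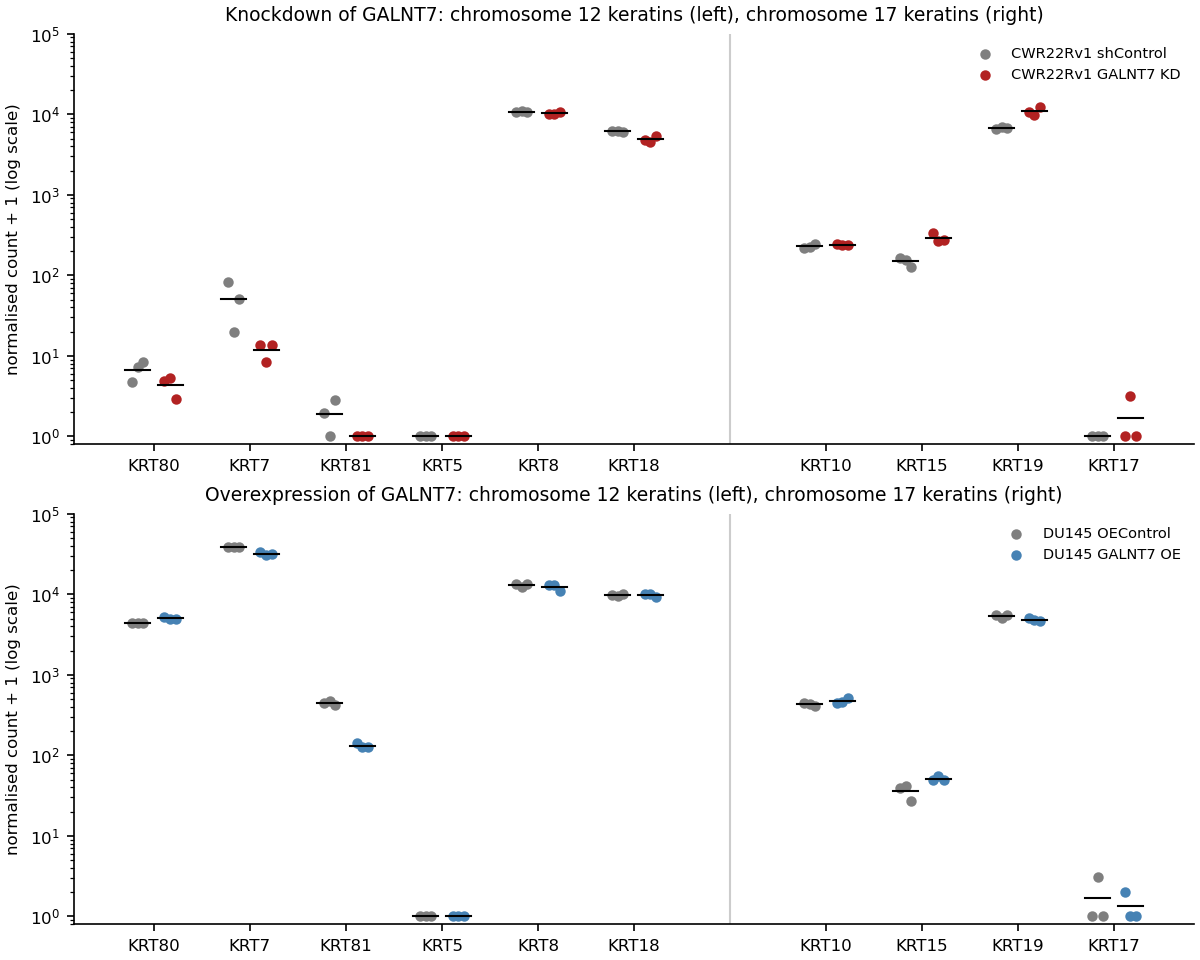
Normalised count plus 1 of each keratin in each library on a log axis, in knockdown (top, CWR22Rv1) and overexpression (bottom, DU145); each point is a library and each line the mean of 3. KRT19 and KRT15 lie higher in all 3 GALNT7 KD libraries than in all shControl libraries, and KRT81 lies lower in all 3 GALNT7 OE libraries than in all OEControl libraries.

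In the GALNT7 KD libraries of CWR22Rv1, KRT8 had no detected change, KRT18 was lower and the chromosome 17 keratins KRT19 and KRT15 were higher. Chromosome 12 genes were lower as a group. With limma on values centred on that chromosome, KRT18 was no longer called (-0.08, adjusted p=0.556) and KRT8 passed as higher (0.20, adjusted p=0.0455). The test was made for genes whose normalised counts averaged 5 or more in the line, a filter that 6 of the 10 keratins passed, namely KRT7, KRT8 and KRT18 on chromosome 12 and KRT10, KRT15 and KRT19 on chromosome 17. Of these, 2 were called higher, against 5.28% of all genes tested, and 1 was called lower, against 3.79% (limma, adjusted p under 0.05; 9.06% of all genes tested in either direction). On chromosome 12, 0 of 3 were higher and 1 of 3 lower, against 2.06% and 21.9% of all its genes tested. On chromosome 17, 2 of 3 were higher and 0 of 3 lower, against 4.12% and 2.68%. Groups did not overlap for 4 of the 6, against 32.5% of all genes tested. In these bulk libraries, fewer cells that make a keratin and less of its mRNA per cell cannot be told apart.

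KRT18, the type I keratin of glandular cells, read 6249, 6283 and 6064 in shControl and 4849, 4479 and 5304 in GALNT7 KD. Every GALNT7 KD library was below every shControl library. The mean fell by 21.3%, or by 0.35 on the log2 scale (standard error 0.0657, adjusted p=0.0238 by limma). This call was the least stable of the 3: KRT18 did not pass when any of the 3 shControl libraries or GALNT7 KD replicate 1 was left out (log2 fold changes -0.36 to -0.34, adjusted p=0.0686 to 0.088).

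KRT8, the type II partner of KRT18, read 10625, 10833 and 10723 in shControl and 9990, 10004 and 10733 in GALNT7 KD. The third GALNT7 KD library lay among the shControl libraries, so the groups overlapped. The log2 fold change was -0.07 with a 95% interval of -0.16 to 0.03 (adjusted p=0.34), so a fall as large as that of KRT18 lay outside the interval.

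KRT7, a type II keratin of ducts and of many simple epithelia, was low in this line and varied widely. It read 81.2, 18.6 and 50.4 in shControl (21 to 87 reads) and 12.6, 7.47 and 12.5 in GALNT7 KD (7 to 13 reads). The groups did not overlap, although shControl replicate 2 came close to the GALNT7 KD libraries. The log2 fold change of -1.91 (standard error 0.542, 95% interval -3.20 to -0.62) did not pass the threshold by limma (adjusted p=0.0765). Without shControl replicate 2 it was -2.49 and passed (adjusted p=0.0288). With all libraries kept, DESeq2 called KRT7 lower (adjusted p=0.0124), while edgeR did not. KRT80 and KRT81 were too low to be tested in this line, with 2 to 8 and 0 to 2 reads per library.

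KRT19 is a type I keratin with a very short tail that pairs with KRT7 or KRT8 in simple epithelia. It read 6612, 6907 and 6699 in shControl and 10807, 9861 and 12317 in GALNT7 KD. The lowest GALNT7 KD library was well above the highest shControl library. The mean rose by 63.1%, or by 0.70 on the log2 scale (standard error 0.0792, adjusted p=0.0047 by limma), and per length KRT19 (402 ± 45.2) moved from below KRT8 to above it (245 ± 10.5).

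KRT15, a type I keratin of basal cells and of some progenitors, read 165, 155 and 125 in shControl and 336, 262 and 276 in GALNT7 KD. All 3 GALNT7 KD libraries were higher, and the mean was 1.97 times that of shControl. The log2 fold change was 0.97 (standard error 0.155, adjusted p=0.0144); without GALNT7 KD replicate 1 it was 0.86 and did not pass (adjusted p=0.0577). The other basal markers stayed close to 0: KRT14 had 4, 6 and 7 reads in shControl and 3, 3 and 2 in GALNT7 KD, TP63 had 0 or 1 read and KRT5 had 0.

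KRT10, the type I keratin of suprabasal epidermis, read 218, 221 and 247 in shControl and 247, 236 and 235 in GALNT7 KD. The groups overlapped, and the log2 fold change of 0.06 had a 95% interval of -0.18 to 0.31 (adjusted p=0.741). The rises of KRT15 and KRT19, further along the same chromosome, lay outside that interval.

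**Figure D3:**
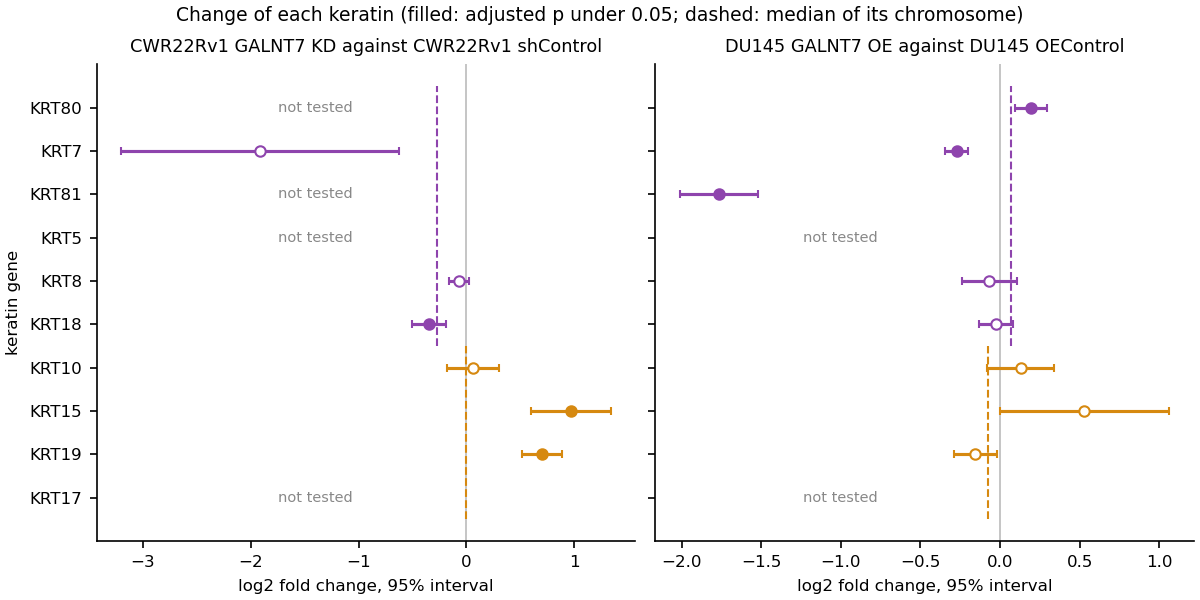
Log2 fold change of each keratin with its 95% interval from limma in knockdown (left) and overexpression (right); filled points passed an adjusted p under 0.05, and dashed lines mark the median of the other genes of the same chromosome. In knockdown the chromosome 12 line lies at -0.28, next to KRT18 and below KRT8, while the chromosome 17 line lies at 0.00.

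The chromosome 12 keratins must be read against their chromosome, because its genes were lower as a group in GALNT7 KD. The median log2 fold change of the 919 non-keratin genes tested there was -0.28, against -0.01 for all genes tested, and 21.9% of the 922 genes of the chromosome were called lower against 2.06% higher. The 58 protein-coding genes within 2 Mb of the keratin cluster had the same median of -0.28, with 16 called lower and 0 higher (limma, adjusted p under 0.05). On chromosome 17 the median of the 1038 non-keratin genes was 0.00. The 98 protein-coding genes within 2 Mb of that cluster had a median of 0.04, with 8 called higher and 1 lower.

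Within its chromosome KRT18 was an ordinary gene: 375 of the 922 genes had a lower log2 fold change and 546 a higher one. With each library centred on the median of the chromosome, KRT18 was at -0.08 and no longer called (adjusted p=0.556). KRT8 had 715 genes below it and 206 above it, and turned from -0.07 to 0.20 on centring, which passed the threshold (adjusted p=0.0455). KRT7 had 16 genes below it, and was at -1.64 on centring (adjusted p=0.121).

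KRT19 and KRT15 stood near the top of their chromosome. On chromosome 17, 992 of 1044 genes had a lower log2 fold change than KRT19 and 1010 had a lower one than KRT15. Centring left KRT19 at 0.69 (adjusted p=0.0036) and KRT15 at 0.97 (adjusted p=0.017). KRT10 had 629 genes below it and 414 above it.

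**Figure D4:**
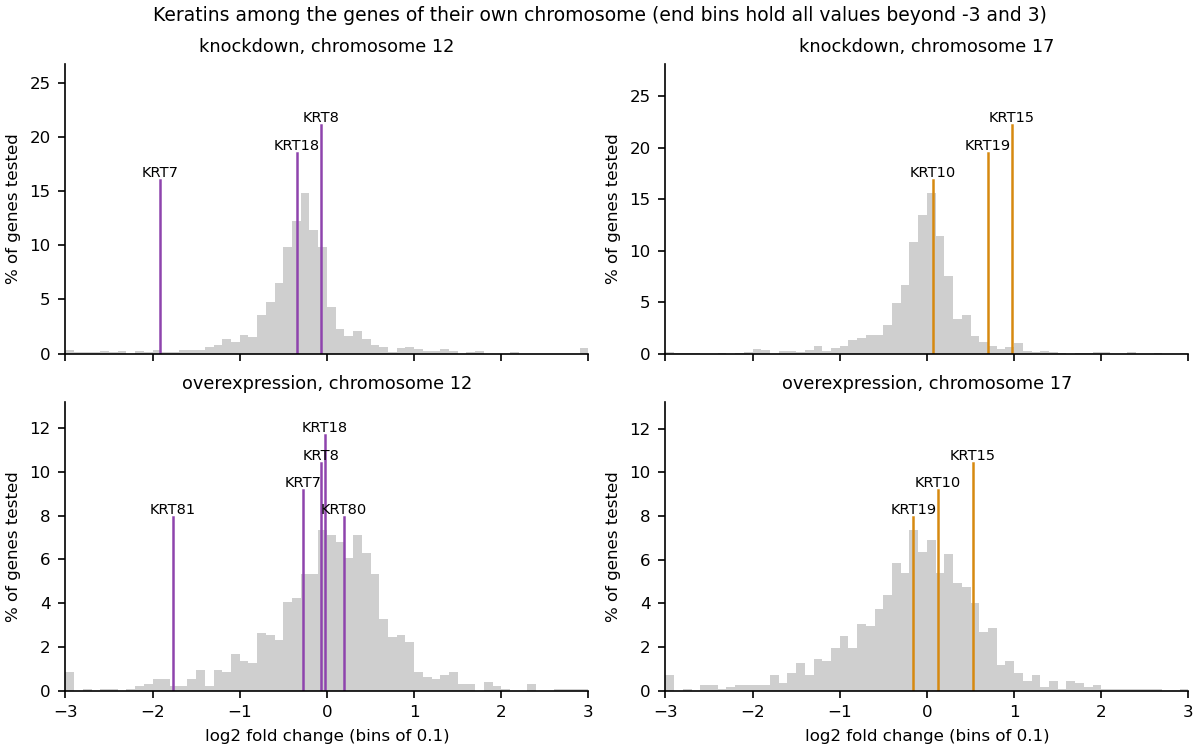
Distribution of log2 fold changes over the genes tested on chromosome 12 (left) and chromosome 17 (right), in knockdown (top) and overexpression (bottom), as the share of genes per bin of 0.1, with the keratins marked by lines. In knockdown the chromosome 12 genes centre on -0.28, with KRT18 near the centre, KRT8 on the right and KRT7 far to the left, while KRT19 and KRT15 lie in the right tail of chromosome 17.

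In the GALNT7 OE libraries of DU145, KRT7 and KRT81 were lower, KRT80 was higher, and KRT8 and KRT18 had no detected change. The calls of KRT7 and KRT80 depended on the scaling, as given below for each gene. Of the 10 keratins, 8 passed the filter, all but KRT5 and KRT17. In this comparison far more genes differed: 1 keratin was called higher against 22.9% of all genes tested, and 2 were called lower against 20.5% (43.5% in either direction). Groups did not overlap for 4 of the 8 keratins, against 55.3% of all genes tested. In all, 3 of 8 keratins were called, a share close to that of all genes.

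KRT7, the leading keratin of DU145 cells, read 38450, 38614 and 38356 in OEControl and 33118, 31042 and 31488 in GALNT7 OE. The control libraries lay very close together, and all 3 GALNT7 OE libraries were below them. The mean fell by 17.1%, or by 0.27 on the log2 scale (standard error 0.0304, adjusted p=0.00049 by limma). In a quantile normalisation, which forces all libraries to the same distribution, the change was -0.13 and did not pass (adjusted p=0.0644).

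KRT81 had the largest change of the 8 tested keratins. It read 445, 471 and 420 in OEControl and 141, 125 and 125 in GALNT7 OE, so that the highest GALNT7 OE library was far below the lowest control library. The mean fell by 70.8%, or by 1.77 on the log2 scale (standard error 0.103, adjusted p=3.0e-05). The near-identical genes were not called lower. KRT86, which runs over KRT81, read 17.2, 28.6 and 36.3 in OEControl and 44.1, 24.95 and 30.4 in GALNT7 OE (log2 fold change 0.29, adjusted p=0.54), and KRT83 read 6.68, 8.18 and 5.04 against 17.04, 22.2 and 31.5 and was called higher (1.66, adjusted p=0.0081). Both are named because of the shared sequence shown above, and reads of KRT81 that fall in the shared parts cannot be told apart from theirs.

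KRT80 read 4371, 4452 and 4379 in OEControl and 5236, 4888 and 4978 in GALNT7 OE. All GALNT7 OE libraries were higher, by a mean of 14.4% (log2 fold change 0.19, standard error 0.0421, adjusted p=0.0094). This small rise depended on the scaling. Rescaling to the 75th percentile, under which the median of all genes was -0.11 in place of -0.01 and 41.6% of calls in place of 52.8% were higher, gave 0.09 for KRT80 (adjusted p=0.136). Quantile normalisation gave 0.11 (adjusted p=0.0948), and centring on chromosome 12 gave 0.11 (adjusted p=0.0787).

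KRT8 and KRT18 overlapped between the groups. KRT8 read 13361, 12253 and 13324 in OEControl and 13190, 12905 and 11105 in GALNT7 OE (log2 fold change -0.07, 95% interval -0.24 to 0.10, adjusted p=0.48). KRT18 read 9864, 9637 and 10186 in OEControl and 9963, 10035 and 9225 in GALNT7 OE (log2 fold change -0.02, 95% interval -0.13 to 0.08, adjusted p=0.706). The third GALNT7 OE library was the lowest for both, and without it both changes were just above 0.

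None of the 3 tested chromosome 17 keratins was called in GALNT7 OE by limma at the scaling deposited or by edgeR, while 1 (KRT19) had an unadjusted p under 0.05 and was called lower by DESeq2. KRT19 read 5524, 5024 and 5598 in OEControl and 5040, 4766 and 4682 in GALNT7 OE, and its groups overlapped by a narrow margin. The log2 fold change was -0.16 (95% interval -0.29 to -0.02, adjusted p=0.0618), and it passed without OEControl replicate 2 (-0.20, adjusted p=0.0294), with 75th percentile scaling (-0.25, adjusted p=0.0122) and with quantile normalisation (-0.24, adjusted p=0.0148). KRT15 read 38.2, 40.9 and 26.2 in OEControl and 48.1, 54.5 and 48.2 in GALNT7 OE. Its groups did not overlap, but the log2 fold change of 0.53 (standard error 0.225) did not pass (adjusted p=0.0982); with quantile normalisation it was 0.83 and passed (adjusted p=0.0244). KRT10 read 446, 429 and 409 in OEControl and 444, 452 and 509 in GALNT7 OE (0.13, 95% interval -0.08 to 0.34, adjusted p=0.283).

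In DU145 the median over the non-keratin genes was 0.07 on chromosome 12 and -0.08 on chromosome 17, against -0.01 for all genes tested. On chromosome 12, 1 of 5 tested keratins was higher and 2 of 5 were lower, against 27.8% and 16.7% of all its genes, and on chromosome 17 0 of 3 were called in either direction, against 21.4% higher and 24.9% lower. KRT81 had 27 of 940 genes of chromosome 12 below it, KRT7 had 257 and KRT80 had 549. Centring on the chromosome left KRT7 at -0.36 (adjusted p=0.00016) and KRT81 at -1.85 (adjusted p=2.6e-05).

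The balance between partners was followed in each library as a ratio of levels per length. KRT8 to KRT18 was 1.25, 1.27 and 1.299 in shControl and 1.51, 1.64 and 1.49 in GALNT7 KD, without overlap (exact permutation test, two-sided p=0.1, the smallest possible). This ratio compares 2 neighbours on chromosome 12. KRT19 to KRT18 was 1.19, 1.24 and 1.24 in shControl and 2.50, 2.47 and 2.61 in GALNT7 KD. That ratio compares genes of 2 chromosomes, and chromosome 12 genes were lower as a group in GALNT7 KD (median log2 fold change -0.28). In DU145 KRT8 to KRT18 overlapped between the groups, at 0.934 to 0.995 in OEControl and 0.884 to 0.973 in GALNT7 OE (exact permutation test, two-sided p=0.5).

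Summed over the 10 keratins, type II to type I was 0.560 to 0.574 in shControl and 0.407 to 0.465 in GALNT7 KD. Type I keratins were thus in excess in both. All type II members lie on chromosome 12 and all type I members but KRT18 on chromosome 17, so this ratio also mixes the chromosomes. In DU145 type II keratins were in excess, at 2.74 to 2.92 in OEControl and 2.49 to 2.59 in GALNT7 OE. The 10 keratins together took 0.121% to 0.124% of all reads in shControl, 0.127% to 0.147% in GALNT7 KD, 0.321% to 0.327% in OEControl and 0.273% to 0.299% in GALNT7 OE. These sums rest mainly on KRT8, KRT18, KRT19 and, in DU145, KRT7.

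**Figure D5:**
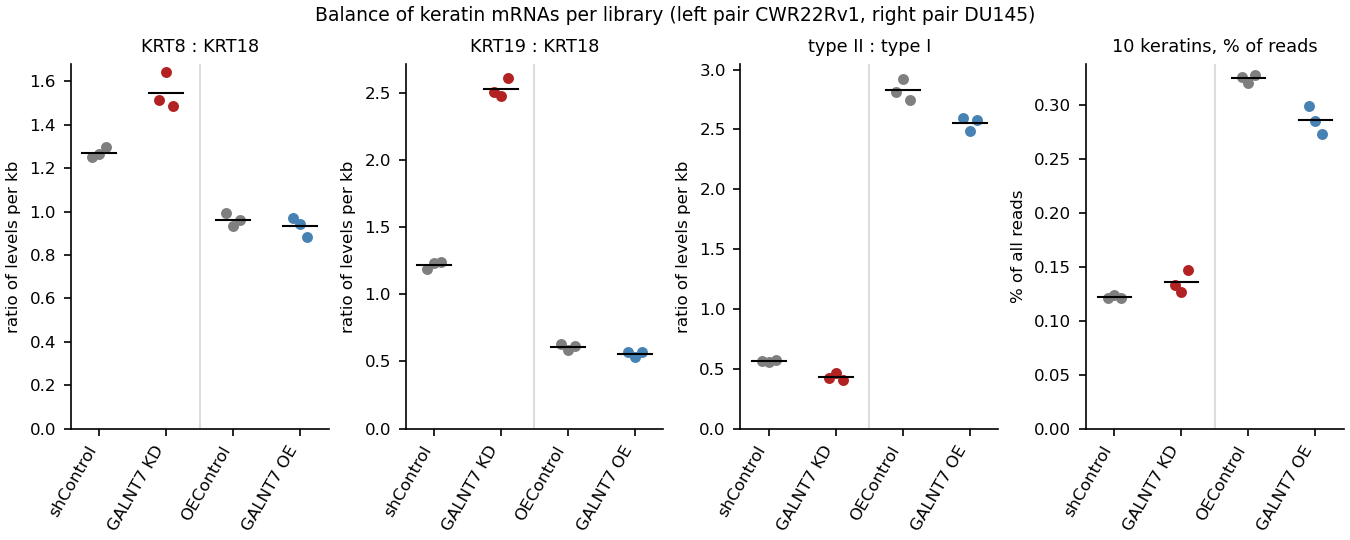
Ratios of levels per kb for KRT8 to KRT18, KRT19 to KRT18 and type II to type I keratins, and the share of all reads on the 10 keratins, in each library (points) with the mean of 3 (line). KRT19 to KRT18 was 1.19 to 1.24 in shControl but 2.47 to 2.61 in GALNT7 KD libraries, and 0.534 to 0.629 in all DU145 libraries.

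The other keratin genes were mostly silent. Of 21 other type II keratins, none passed the filter in CWR22Rv1 and 3 did in DU145. Of these 3, 2 were higher and 0 lower by limma (22.9% and 20.5% of all genes), edgeR, DESeq2 and an unadjusted p under 0.05. The main one was KRT4, a keratin of non-cornified stratified epithelium such as the oesophagus, which read 31.5, 62.4 and 59.4 in OEControl and 299, 323 and 325 in GALNT7 OE (log2 fold change 2.66, standard error 0.262, adjusted p=0.00028), and the other was KRT83. KRT4 had 0 reads in all CWR22Rv1 libraries. Of 24 other type I keratins, 2 passed the filter in CWR22Rv1 and 0 in DU145; neither had an unadjusted p under 0.05 or was called by limma, edgeR or DESeq2. Of 134 keratin pseudogenes, 6 were tested in each line. In knockdown none was called by limma, edgeR or DESeq2 or had an unadjusted p under 0.05. With GALNT7 OE 1 was higher and 2 lower (KRT16P1 and KRT16P2, named after their values were seen), against 22.9% and 20.5% of all genes. KRT8P12 read 109, 95.1 and 108 in OEControl and 164, 145 and 151 in GALNT7 OE (0.56, adjusted p=0.0101), while its parent KRT8 overlapped between these groups.

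Keratin filaments are held at the cell surface by desmosomes and hemidesmosomes and linked by plakins. Of 19 such anchor genes, 17 were tested in knockdown, where 2 were called higher and 0 lower (2 with an unadjusted p under 0.05 were lower, 0 by edgeR and 1 by DESeq2). Both were desmosomal cadherins: DSG2 read 4106, 4320 and 4174 in shControl and 5712, 5795 and 5033 in GALNT7 KD (log2 fold change 0.39, adjusted p=0.0158), and DSC2 read 123, 126 and 151 against 210, 244 and 186 (0.67, adjusted p=0.0414). DSC2 and DSG2 did not pass when certain libraries were left out, with adjusted p-values of up to 0.131 and 0.068. The median of the anchors in knockdown was -0.04, against -0.01 for all genes tested. Of all genes tested, 5.28% were called higher and 3.79% lower.

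In GALNT7 OE cells 7 of 18 anchor genes tested were higher and 5 were lower, with a median of 0.04. Of all genes tested, 22.9% were higher and 20.5% lower. DSP, the desmoplakin that ties keratin filaments to the desmosome, rose from 471, 516 and 483 to 1250, 1568 and 1310 (log2 fold change 1.48, adjusted p=5.6e-05). JUP, the plakoglobin that binds desmoplakin, fell from 3440, 3453 and 3497 to 1667, 1517 and 1518 (-1.14, adjusted p=1.3e-05). EPPK1, the keratin-binding plakin epiplakin, fell from 200, 168 and 173 to 60.1, 49.9 and 49.3 (-1.75, adjusted p=0.00015). ITGA6, an integrin subunit of the hemidesmosome, rose from 2035, 2146 and 1813 to 3711, 3835 and 4162 (0.97, adjusted p=0.00012). Its partner ITGB4, named after its values were seen, fell from 1672, 1415 and 1865 to 1057, 999 and 851 (-0.76, adjusted p=0.0027), so that genes of the same junction moved in both directions.

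Of 16 other intermediate filament genes, 12 were tested in knockdown, where 1 was called higher and 5 lower. Of all genes tested, 5.28% were called higher and 3.79% lower. The median of the 12 was -0.26, against -0.01 for all genes tested. NEFH, the heavy neurofilament subunit, fell from 518, 516 and 515 to 156, 147 and 158 (log2 fold change -1.74, adjusted p=0.00031). VIM, the filament of mesenchymal cells, was low and fell from 70.9, 86.6 and 98.9 to 32.9, 39.5 and 36.6 (-1.20, adjusted p=0.014). SYNM was lower (-0.42, adjusted p=0.0279) and NEFL higher (0.72, adjusted p=0.0198). The other called genes, named after their values were seen, were LMNB1 and PRPH, and PRPH lies on chromosome 12.

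In GALNT7 OE cells 5 of 13 other intermediate filament genes were higher and 1 was lower, against 22.9% and 20.5% of all genes tested. The nuclear lamins LMNB1 (864, 723 and 911 against 2449, 2841 and 2483, log2 fold change 1.64, adjusted p=4.4e-05), LMNB2 (0.86, adjusted p=7.6e-05) and LMNA (0.55, adjusted p=0.0034) rose. VIM and NEFL, named after their values were seen, were the other called rises, with VIM at 16225 to 16431 in OEControl and 19040 to 19758 in GALNT7 OE. GFAP, the filament of astrocytes, fell (-0.77, adjusted p=0.0011).

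Of 16 epithelial regulators, 13 were tested in knockdown and none was called by limma or edgeR, while 3 had an unadjusted p under 0.05 and DESeq2 called 2 higher and 1 lower. In GALNT7 OE cells 3 of 11 were higher and 3 lower, against 22.9% and 20.5% of all genes tested. ELF3, an epithelial transcription factor, fell from 3791, 3708 and 3974 to 939, 909 and 920 (log2 fold change -2.05, adjusted p=1.8e-06), and KLF4, a factor of epithelial differentiation, fell (-0.84, adjusted p=0.00074). The epithelial splicing regulators ESRP1 (2.36, adjusted p=0.00039) and ESRP2 (0.81, adjusted p=0.0014) rose. ESRP1 was low, at 14.3 to 17.4 in OEControl and 64.1 to 111 in GALNT7 OE.

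A list of genes for proteins that bind keratins or act on them was tested in full in both lines (11 of 11 matched genes); it also holds KRTCAP2 and KRTCAP3, keratinocyte-associated proteins that carry the name without being known to bind keratins. In knockdown 2 were higher and 1 lower, against 5.28% and 3.79% of all genes tested. TCHP, the keratin-binding trichoplein, fell (log2 fold change -0.72, adjusted p=0.0038) and lies on chromosome 12. HSPB1, a small heat shock protein (0.37, adjusted p=0.0411), and CSNK1A1, a kinase linked to keratin disassembly (0.27, adjusted p=0.0123), rose. In GALNT7 OE cells SFN, the 14-3-3 sigma protein, rose from 2413 to 2441 up to 3812 to 4125 (0.71, adjusted p=5.0e-05), CSNK1A1 rose (0.36, adjusted p=0.00037) and KRTCAP2, a subunit of the oligosaccharyltransferase complex, rose (0.38, adjusted p=0.0149), while TRADD, an adaptor that binds KRT18, fell (-0.62, adjusted p=0.004). Of 11 cornified envelope genes, 2 were tested in knockdown, with none called by limma, edgeR or DESeq2 and 1 at an unadjusted p under 0.05. In GALNT7 OE cells 4 were tested, of which 1 was higher and 2 lower, against 22.9% and 20.5% of all genes tested. SBSN, the suprabasin of differentiating keratinocytes, fell from 157, 141 and 160 to 18.04, 12.01 and 22.03 (-3.10, adjusted p=0.0001), and CNFN fell (-0.92, adjusted p=0.0026).

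Likeness between genes was described by Pearson's r over the 12 libraries, with each cell line centred on its own mean, over the 16124 genes tested in both lines. These points share depth and the 2 treatments, so r is only a description. KRT19 was most like CALR (r=0.99), DLG4 (r=0.97) and GOLM1 (r=0.97), and its possible partner KRT7 was at rank 15619 (r=-0.73). KRT8 was most like INPP5J (r=0.93), RPL10P16 (r=0.91) and AL139246.5 (r=0.91), with KRT18 at rank 595 (r=0.59). KRT18 was most like ARL6IP4 (r=0.96), HSD3B7 (r=0.95) and AP006621.3 (r=0.95), with KRT8 at rank 1282.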

How the data were processed

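Stranded polyadenylated RNA libraries of CWR22Rv1 and DU145 cells were sequenced by the study. The deposited signal is a normalised count for each of 59424 Ensembl genes, in 1 table per cell line, made by the authors by dividing reads by a size factor of the library. The submitters' processing notes name hg38, FastQC, Salmon, DESeq2 and R 3.5.3; the annotation release and the use of strand in counting are not given in the sources used here. Whole reads were recovered by dividing each library by its smallest step, with 100% of values whole (tolerance 0.01). Names, positions and transcripts came from GENCODE release 29 (GRCh38), which holds 94.4% of the identifiers; the main transcript of a gene sets its length.

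Each cell line was fitted alone with limma 3.58.1 (R 4.3.3; lmFit and eBayes with trend) after adding 1 to the normalised counts and taking log2, keeping genes that averaged 5 or more, with Benjamini-Hochberg adjustment over all genes and a threshold of 0.05. Fold changes on this scale understate the change of low genes. Alternatives included edgeR 4.0.16 and DESeq2 1.42.0 on the recovered reads. The tests were tried on simulated counts. Replicates differed by more than sampling noise (mean chi-square per gene 8.77 to 23.7). Intervals and limits on zero counts cover counting error only where they rest on reads.

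The members and the gene lists were chosen with earlier results of these data known. Of 154 listed symbols, 1 was not matched. Genes outside the 10 keratins were named by rule: GALNT7, KRT14, up to 4 genes per list and comparison past the threshold with a mean of at least 50 and the largest changes, and the 3 genes most like KRT8, KRT18 and KRT19; others are marked in the text or are listed markers. The values of 1 listed marker are not reported here.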

Additional observations from a re-analysis of the deposited data

How the results depend on the processing

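Each comparison was repeated under 18 other settings. In knockdown the count of genes called was 1623, and it was 1002 with the replicate block, 996 without the eBayes trend, 2666 with DESeq2, 392 at an adjusted p of 0.01 and 539 to 1336 with a library left out. Keratins called higher went from 2 to 1 at an adjusted p of 0.01 and were 1 to 2 with a library left out. Keratins called lower went from 1 to 0 with chromosome centring, with the replicate block, without the trend and at 0.01. They went to 2 with DESeq2, which added KRT7, and were 0 to 1 with a library left out. In overexpression the 8132 genes called became 5303 at 0.01, and keratins called higher went from 1 to 0 with 75th percentile scaling, with chromosome centring and without the trend. With quantile normalisation KRT19 took the place of KRT7 among the 2 keratins called lower, and KRT15 that of KRT80 as the 1 called higher. Signs turned for KRT8 in knockdown with chromosome centring (0.20) and, without GALNT7 OE replicate 3, for KRT8 and KRT18 in overexpression, whose changes with a library left out were -0.115 to 0.0086 and -0.045 to 0.015. The cause was not tested. Replicate numbers paired the libraries weakly, if at all. In CWR22Rv1 correlations of same-numbered libraries were -0.011, 0.075 and -0.0057, and those of differently numbered libraries -0.064 to 0.074. In DU145 same-numbered libraries were at 0.043, 0.043 and 0.016, above differently numbered ones at -0.045 to 0.0042. With the block, KRT18 in knockdown was lost (adjusted p=0.0539). Among the named genes outside the keratins, DSC2, DSG2, VIM, NEFL, SYNM, HSPB1 and CSNK1A1 in knockdown did not pass without GALNT7 KD replicate 1 (adjusted p=0.0589 to 0.122) nor without at least 1 shControl library, and KRTCAP2 in overexpression did not pass without OEControl replicate 3 (adjusted p=0.051). KRT19 in knockdown and KRT81 in overexpression passed 0.05 in every setting run. Depth limits KRT5 and KRT17 in both lines, and KRT80 and KRT81 in CWR22Rv1.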
